A study of Sus scrofa with 23 samples.

Results

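The comparison described here sets the prefrontal cortex of pigs killed 1 day after psilocybin against that of pigs killed 1 day after saline. Its members are the 11 libraries labelled with that time, 6 psilocybin and 5 saline, out of 23 in the series. The psilocybin group held adolescent female slaughter pigs of about 20 kg that had been given 0.08 mg/kg of psilocybin into a vein while awake. The saline group held females of the same kind and weight that had been given saline by the same route. Both were killed with pentobarbital, and RNA from the snap-frozen brain was sequenced after poly-A selection. Each library came from a separate animal, and the labels name no transgene or mutant. The design names 6 animals per group, and the remaining saline animal is not analysed here. The labels divide the animals into batch 1 (3 psilocybin and 2 saline animals) and batch 2 (3 and 3), without saying what a batch was. Animal numbers used here follow the accessions inside each group, so a number links no psilocybin animal to a saline animal.

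Psilocybin is converted in the body to psilocin, an agonist of several serotonin receptors. Its psychedelic action depends on the 5-HT2A receptor, encoded by HTR2A, which in the cortex sits mainly on excitatory pyramidal neurons and couples through Gq proteins to phospholipase C. Acute stimulation of this receptor is known from rodents to switch on immediate early genes within hours, and slower changes in synaptic, trophic and inflammatory genes have been sought at later times, which is the question a 1 day time point addresses. In bulk tissue, fewer cells of a type and less RNA per cell cannot be told apart.

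Assigned counts per library ranged from 9975409 to 18654626 after psilocybin and from 11453787 to 17206665 after saline. Levels are given in CPM, counts per 1000000 counts of a library after TMM scaling. The tissue carried the RNA of cortex: the neuronal markers SNAP25 and SLC17A7 had at least 23320 and 10333 counts in every psilocybin library and 28597 and 12288 in every saline library. Markers of T cells were low, with 0 to 5 counts of CD3E after psilocybin and 1 to 7 after saline, 1 to 16 of CD8A after psilocybin and 6 to 16 after saline, and 5 to 21 of CD2 after psilocybin and 9 to 14 after saline. Principal components were computed on log2 CPM after the mean of each batch was removed. On the first component, which held 25.9% of the remaining variance, saline animal 5 stood apart from the other 10 libraries. Its score was 49.99, against -15.0 to 15.1 in the others. Where a list median quoted in the text below turned its sign without this animal, it is given with and without it.

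No gene passed the test of psilocybin against saline after adjustment over all genes. Of 15049 genes tested with edgeR's quasi-likelihood test, 0 (0.0%) had an adjusted p under 0.05. At an unadjusted p under 0.05, 190 genes (1.26%) were higher and 236 (1.57%) lower after psilocybin, together 2.83%. As a share of the genes this is below 0.05, which the threshold would mark on average if no gene differed. DESeq2 and limma-voom in the same design also gave 0 adjusted calls, with 452 and 397 genes at that unadjusted threshold. The estimates were narrow for most genes. The 95% confidence interval of the difference lay inside a 2-fold change in either direction for 14147 genes (94.0%) and inside a 1.5-fold change for 11403 (75.8%). A log2 fold change past 0.5 in size was reached by 318 genes (2.11%), and by 105 (0.698%) in the same direction in both batches. Every gene named below has values that did not pass, and words such as lower or higher describe those values alone.

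**Figure D1:**
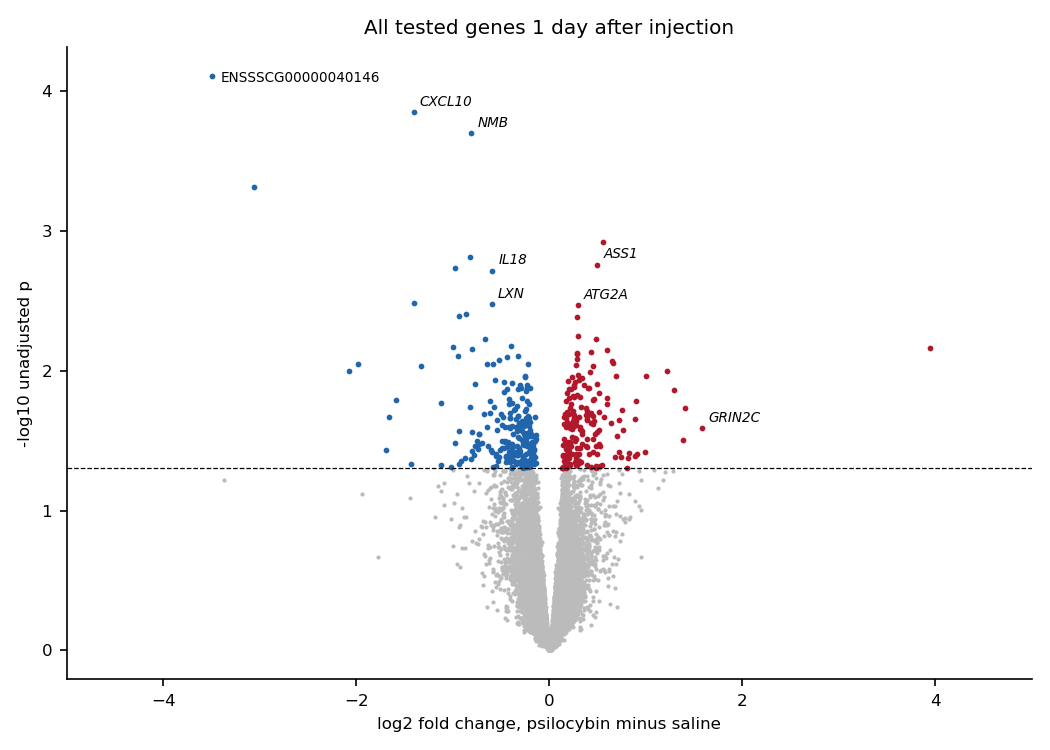
All 15049 tested genes, with the log2 fold change of psilocybin over saline on the x axis and the negative log10 of the unadjusted p on the y axis. Red and blue points are the 190 higher and 236 lower genes with an unadjusted p under 0.05 (dashed line), of which 0 passed adjustment.

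The lower genes with the smallest p included genes of immune signalling and of secreted peptides. The 12 with a symbol were CXCL10, NMB, LRRC36, IL18, LXN, PAX9, IGF1, FAM111B, IFI35, TMEM156, ALG5 and ARHGAP15. Their log2 fold changes ran from -1.41 to -0.33, each with an edgeR adjusted p of 0.997 or more. The sign was negative for 12 of 12 in each batch fitted alone and whichever single animal was left out. Those fits reuse the values by which the genes were chosen, so this agreement of sign supports nothing further.

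CXCL10 encodes a chemokine that interferons induce and that draws T cells. Its level after psilocybin was 0.663 CPM at the lowest, 1.48 at the median and 2.08 at the highest, against 4.12, 4.57, 2.31, 2.75 and 5.09 CPM in the 5 saline animals. The groups did not overlap, although the highest psilocybin animal came close to the lowest saline animal. The log2 fold change was -1.41 ± 0.31 (SE), -1.69 in batch 1 and -1.18 in batch 2. The span of CXCL10 overlaps another gene on the opposite strand, whose reads an unstranded count cannot set apart.

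NMB encodes neuromedin B, a bombesin-like neuropeptide. Psilocybin animals had 3.25 CPM at the lowest, 4.28 at the median and 5.25 at the highest, against 8.94, 7.65, 5.04, 5.995 and 9.05 CPM after saline. Only saline animal 3 fell inside the psilocybin range. The log2 fold change of NMB was -0.81 ± 0.18 (SE) and had nearly the same size in both batches (-0.77 in batch 1 and -0.88 in batch 2).

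IL18 encodes a cytokine of the interleukin-1 family that inflammasomes release. It had 2.999 CPM at the lowest, 3.98 at the median and 5.11 at the highest after psilocybin, against 7.73, 6.49, 4.38, 3.92 and 6.79 CPM after saline. Saline animals 3 and 4 lay within the psilocybin range and the other 3 above it. IL18's log2 fold change was -0.59 ± 0.17 (SE), and -0.45 without saline animal 5.

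IGF1 encodes insulin-like growth factor 1, a trophic factor that some interneurons and microglia make in rodents. Psilocybin animals had 0.277 CPM at the lowest, 0.490 at the median and 0.692 at the highest, against 0.773, 0.998, 1.07, 1.18 and 0.707 CPM after saline. The groups did not overlap, but the gap between them was narrow, and the level was low. The log2 fold change of IGF1 was -0.94 ± 0.30 (SE), with -1.20 in batch 1 and -0.78 in batch 2.

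LXN encodes latexin, an inhibitor of carboxypeptidases. After psilocybin it had 9.28 CPM at the lowest, 15.1 at the median and 21.4 at the highest, against 22.3, 22.0, 20.8, 15.8 and 29.5 CPM after saline, with a log2 fold change of -0.60 ± 0.18 (SE). The groups overlapped. ALG5, an enzyme of the dolichol pathway that makes the sugar precursor for N-glycosylation, had from 9.49 to 11.97 CPM after psilocybin, against 12.7, 13.4, 12.7, 14.3 and 16.8 CPM after saline, and the groups did not overlap (log2 fold change -0.33 ± 0.11, SE). ARHGAP15, a Rac GTPase-activating protein, averaged 0.567 ± 0.238 CPM in psilocybin animals, against 1.10 ± 0.342 CPM in saline animals (SD, n = 6 and 5), with a log2 fold change of -0.95.

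Higher genes had smaller changes. The 12 with the smallest p and a symbol were ASS1, ATG2A, GALNT16, GALNT10, ZNF786, COL9A3, TPP1, TECPR1, BEST1, IVD, CHAD and MMD2. Their log2 fold changes ran from 0.28 to 0.65, all with an edgeR adjusted p of 0.9996. They too kept their sign in 12 of 12 cases in each batch and in each fit that left out 1 animal. Here again the fits reuse the values by which the genes were chosen, so the count supports nothing further.

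ATG2A, TPP1 and TECPR1 are genes of autophagy and the lysosome. ATG2A encodes a lipid transfer protein needed for the growth of the autophagosome membrane. Its level was 62.8 CPM at the lowest, 66.8 at the median and 70.8 at the highest after psilocybin, against 55.9, 55.4, 58.8, 56.2 and 45.1 CPM after saline. The groups did not overlap, and 4 of the 5 saline animals lay close together while saline animal 5 lay below them. The log2 fold change of ATG2A was 0.30 ± 0.09 (SE), and 0.24 without saline animal 5.

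TPP1 encodes tripeptidyl peptidase 1, a lysosomal protease whose loss in humans causes a neuronal ceroid lipofuscinosis. Psilocybin animals had 80.6 CPM at the lowest, 93.8 at the median and 99.8 at the highest, against 76.5, 77.2, 79.5, 78.7 and 59.6 CPM after saline. These groups did not overlap either, by a margin of about 1 CPM, and saline animal 5 was again the lowest (log2 fold change of TPP1 0.29 ± 0.10, SE, and 0.23 without saline animal 5). TECPR1, which takes part in the fusion of autophagosomes with lysosomes, averaged 71.4 ± 9.21 CPM in psilocybin animals, against 59.1 ± 8.98 CPM in saline animals (SD, n = 6 and 5). The span of TECPR1 also overlaps another gene on the opposite strand. The other autophagy genes gave no common direction. Of 33 tested members of the autophagy list, 15 had positive and 18 negative log2 fold changes, with a median of -0.01 beside 0.00 over all tested genes. Without saline animal 5 they were 21 and 12 (median 0.05). ATG4C, a protease that processes the ubiquitin-like proteins of autophagy, had 6.99 ± 1.74 CPM in psilocybin animals, against 9.60 ± 2.79 CPM in saline animals. Saline animal 5 alone had 14.6 CPM of ATG4C, and the log2 fold change of -0.43 was -0.26 without it.

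ASS1 encodes argininosuccinate synthase, an enzyme of arginine synthesis. Psilocybin animals had 4.58 CPM at the lowest, 6.42 at the median and 9.002 at the highest, against 3.35, 4.99, 6.11, 4.76 and 5.23 CPM after saline. The groups overlapped (log2 fold change of ASS1 0.50 ± 0.14, SE). GALNT16 and GALNT10 both encode enzymes that start O-linked glycosylation of proteins. GALNT16 averaged 51.3 ± 5.68 CPM in psilocybin animals, against 42.5 ± 6.09 CPM in saline animals, and GALNT10 averaged 44.8 ± 6.70 CPM in psilocybin animals, against 37.2 ± 6.54 CPM in saline animals. IVD encodes isovaleryl-CoA dehydrogenase of leucine breakdown, and had 91.6 ± 11.9 CPM in psilocybin animals, against 75.8 ± 7.29 CPM in saline animals.

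**Figure D2:**
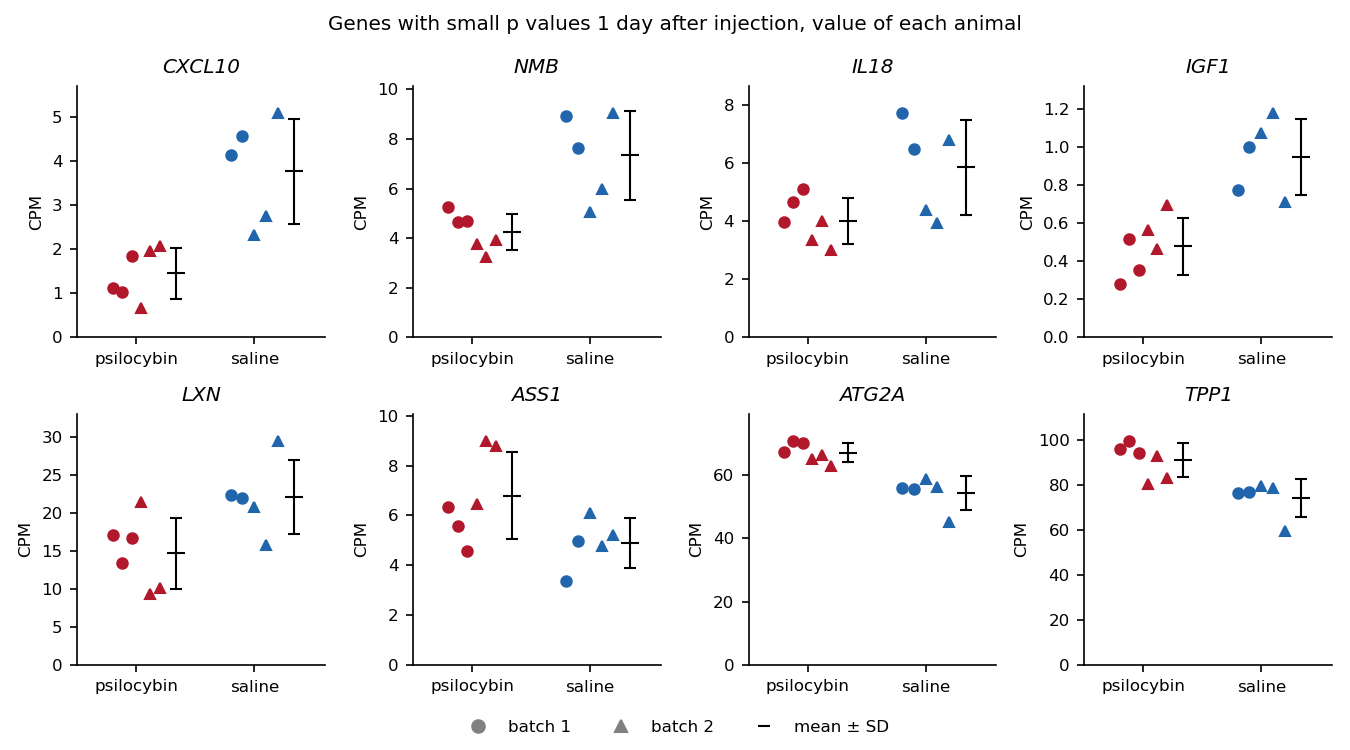
CPM of 8 genes in each animal 1 day after psilocybin (red, n = 6) or saline (blue, n = 5), with circles for batch 1, triangles for batch 2 and bars for mean ± SD. CXCL10, IGF1, ATG2A and TPP1 have groups that do not overlap, and saline animal 5, the last blue triangle, is the lowest for ATG2A (45.1 CPM) and TPP1 (59.6 CPM).

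Groups without any overlap were found for 19 of the 15049 genes (0.126%), 7 higher (0.0465%) and 12 lower (0.0797%). Beside CXCL10, IGF1 and ALG5, the lower ones with a symbol were MEMO1, OLA1, GALK2, NUP35, PMFBP1 and RUNDC3B. Beside ATG2A and TPP1, the higher ones were MXRA8, DVL3, PDPN and NEU4. These were chosen after their values were seen.

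PDPN encodes podoplanin, a membrane glycoprotein of astrocytes and of lymphatic and meningeal cells. Psilocybin animals had 22.0 CPM at the lowest, 23.6 at the median and 25.8 at the highest, against 14.8, 16.8, 17.2, 20.1 and 20.3 CPM after saline. NEU4 encodes a sialidase and was listed among markers of oligodendrocyte precursors. Its level was 11.5 CPM at the lowest, 12.5 at the median and 14.9 at the highest after psilocybin, against 10.3, 7.65, 8.26, 9.30 and 9.69 CPM after saline. The log2 fold changes were 0.41 ± 0.15 (SE) for PDPN and 0.50 ± 0.21 (SE) for NEU4. Both genes had an unadjusted p under 0.05 in each batch fitted alone, by edgeR (for PDPN 0.00681 in batch 1 and 0.0413 in batch 2, for NEU4 0.0351 in batch 1 and 0.0146 in batch 2). The batch fits reuse the values by which PDPN and NEU4 were chosen, so these p values support nothing further.

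Each batch was also fitted alone. Of the 15049 genes tested, batch 1 alone had 156 at an unadjusted p under 0.05 and batch 2 alone had 205. The number that unrelated sets of these sizes would share was not computed. In both sets were 12 genes, which is 7.69% of the batch 1 set and 5.85% of the batch 2 set. Of these 12, 8 had the same sign in both batches, and among them, named after their values were seen, were CXCL10, NMB, PDPN, NEU4 and COL2A1, the collagen of cartilage. Over all 15049 genes the sign was the same in both batches for 8539 (56.7%), and among the genes at an unadjusted p under 0.05 in 1 batch it was the same in the other for 63.5% (batch 1) and 59.5% (batch 2).

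The smallest p of all belonged to a gene without a symbol, ENSSSCG00000040146 on chromosome 13, from 29674384 to 29679064 on susScr11, whose span overlaps that of the RefSeq gene LOC100515578. It was chosen after its values were seen, because it is the only gene that any of the settings tried called after adjustment (DESeq2 on the 11 libraries alone, adjusted p = 0.00263). Its counts were 0, 0, 3, 1, 1 and 2 in psilocybin animals 1 to 6, against 14, 10, 11, 20 and 23 in the saline animals. In CPM this was 0.265 at the highest after psilocybin and 0.832 at the lowest after saline. The animals killed at 1 week show that the values of this gene form a low and a high cluster in either treatment. What sets the clusters was not tested, and at 1 day cluster and treatment cannot be told apart. Over all 23 animals, 11 lay at or under 0.265 CPM and 12 at or over 0.812 CPM, with none between. At 1 week 3 of 6 psilocybin animals and 4 of 6 saline animals were in the high cluster, whereas at 1 day 0 of 6 psilocybin animals and 5 of 5 saline animals were.

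A second gene without a symbol had the most positive log2 fold change. ENSSSCG00000006455, on chromosome 4 from 92393744 to 92415839, has a span that overlaps the RefSeq genes CD5L and LOC100152824. Its counts were 12, 1, 12, 20, 2 and 18 in psilocybin animals 1 to 6, against 0, 0, 1, 2 and 0 in the saline animals. At 1 week counts were 0 to 20 after psilocybin and 0 to 15 after saline. Values of 1.02 CPM or more were found in 4 of 6 psilocybin and 0 of 5 saline animals at 1 day, and in 2 of 6 psilocybin and 1 of 6 saline animals at 1 week.

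**Figure D3:**
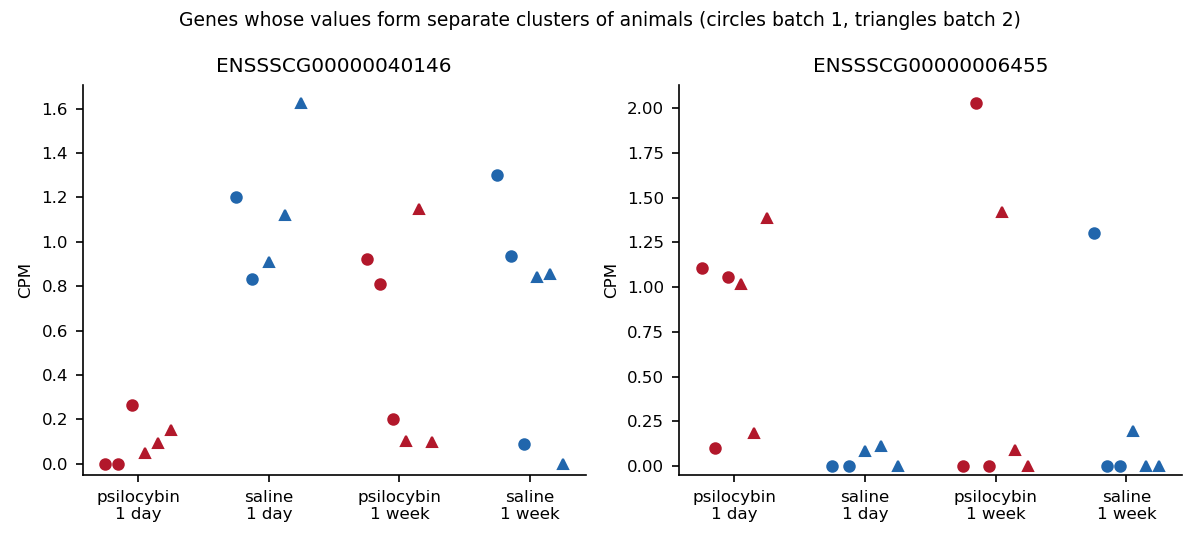
CPM of ENSSSCG00000040146 and ENSSSCG00000006455 in each of the 23 animals, by treatment (red psilocybin, blue saline) and time, with circles for batch 1 and triangles for batch 2. For ENSSSCG00000040146 no animal lies between 0.265 and 0.812 CPM, and animals of both treatments are on both sides of that gap at 1 week.

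The interferon list was the immune group with the most uniform sign. Type I interferons bind a receptor on the cell surface, and the signal from it switches on antiviral genes. Of 49 tested members, 7 had positive and 42 negative log2 fold changes, with a median of -0.27 beside 0.00 over all genes tested, of which 51.4% were positive and 48.6% negative. An unadjusted p under 0.05 was reached by 4 members (8.16%, beside 2.83% of all genes), CXCL10, IFI35, HERC5 and GBP1, all lower, and 0 passed adjustment. The median was -0.26 in batch 1, -0.21 in batch 2 and -0.28 without saline animal 5. Leaving out 1 animal at a time, it ran from -0.36 (without psilocybin animal 5) to -0.17 (without saline animal 3). Read sharing between near-identical copies makes the GBP and IFIT genes uncertain.

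The members were also grouped by role, in classes drawn up after the values were seen. These classes leave out some of the 49 tested members, positive ones among them. Of 7 receptors and adaptors that sense foreign nucleic acid, 6 had negative log2 fold changes, among them RIGI at 24.5 ± 5.49 CPM in psilocybin animals, against 30.5 ± 6.47 CPM in saline animals. Of 7 transcription factors, 5 were negative, and their median (-0.12) was the one closest to 0. STAT2 had 49.9 ± 3.38 CPM in psilocybin animals, against 49.8 ± 5.23 CPM in saline animals.

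All 5 genes of the ISG15 system, a ubiquitin-like modifier and its enzymes, were negative (median -0.30). HERC5, the ligase that attaches ISG15, had 15.4 CPM at the lowest, 19.3 at the median and 22.9 at the highest after psilocybin, against 27.5, 24.5, 25.6, 17.8 and 25.7 CPM after saline. Of 17 antiviral effectors, 16 were negative (median -0.38), down to -0.87 for RSAD2, the antiviral enzyme viperin. RSAD2 averaged 5.73 ± 6.19 CPM in psilocybin animals, against 10.4 ± 9.50 CPM in saline animals, so that animals varied more than the groups differed. IFI35, an interferon-induced leucine zipper protein, varied less, with 3.69 CPM at the lowest, 4.81 at the median and 5.62 at the highest after psilocybin, against 6.01, 6.07, 5.95, 4.82 and 7.002 CPM after saline. MX1, a GTPase that blocks influenza viruses, had 116 ± 9.87 CPM in psilocybin animals, against 119 ± 20.02 CPM in saline animals.

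By animal, the interferon score (the mean over members of log2 CPM, relative to the 11 animals) did not separate the groups. It was -0.34, -0.31, -0.21, -0.30, 0.43 and -0.03 in psilocybin animals 1 to 6, against 0.22, -0.14, 0.52, 0.03 and 0.13 in saline animals 1 to 5. Psilocybin animal 5 had the highest score of its group, and only saline animal 3 exceeded it. At 1 week, in other animals of both treatments, the median log2 fold change of the interferon list was 0.26, with a sign opposite to that at 1 day. With edgeR 0 genes passed the test of the difference between the effects at 1 day and 1 week (smallest adjusted p = 0.9999). CXCL10 gave an unadjusted p of 0.00171 in this edgeR test. It was chosen by its 1 day values, which enter the test, so that this p supports nothing further.

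**Figure D4:**
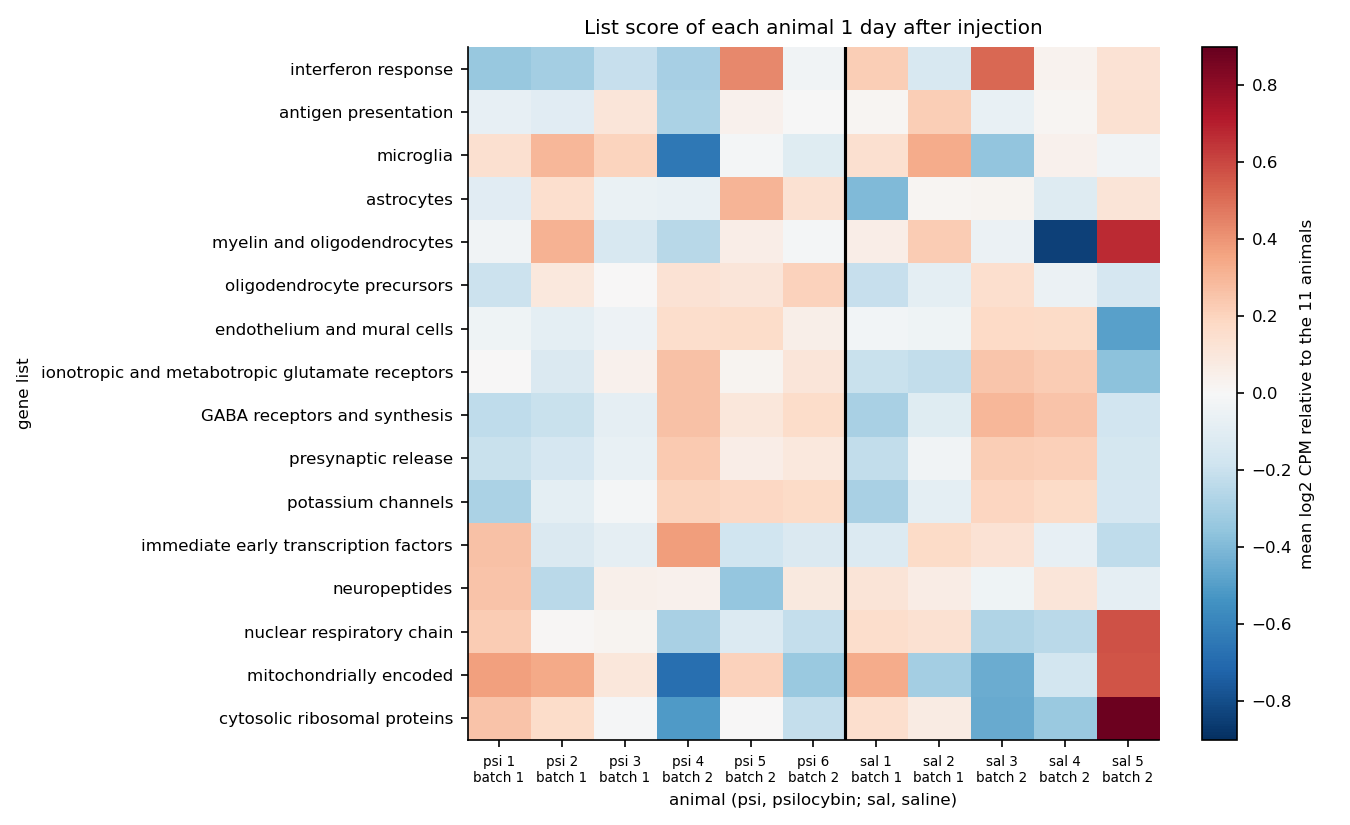
Score of 16 gene lists (rows) in each animal (columns), psilocybin animals left and saline animals right of the line, as the mean log2 CPM of the members relative to the 11 animals. Saline animal 5 is high for ribosomal, respiratory chain and myelin genes, and psilocybin animal 5 and saline animal 3 are the highest for the interferon response.

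Microglial genes had values on both sides of 0. Of 27 tested microglial genes, 9 were positive and 18 negative, with a median of -0.09 that was 0.03 in batch 1, -0.18 in batch 2 and 0.01 without psilocybin animal 4. Their score ranged from -0.65 to 0.30 after psilocybin and from -0.35 to 0.33 after saline. The defining markers CX3CR1 and CSF1R had log2 fold changes of 0.12 and 0.07, and P2RY12 and AIF1 of -0.21 and -0.26. The part of microglial content in the interferon values was not tested. Antigen presentation genes, which interferon-gamma controls, had 3 positive and 14 negative of 17 tested members, with a median of -0.16 that was -0.06 without saline animal 5. SLA-DMA, which loads peptides onto class II molecules, had 2.35 ± 0.492 CPM in psilocybin animals, against 3.17 ± 1.31 CPM in saline animals, where saline animal 2 alone had 5.49 CPM (log2 fold change of SLA-DMA -0.44, and -0.18 without that animal). Cytokine genes other than IL18 gave no common direction (15 positive and 19 negative of 34, IL18 included, with a median of -0.03 that was 0.02 without psilocybin animal 4).

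Of 8 tested genes of serotonin receptors and serotonin handling, the system on which psilocin acts, 4 were positive and 4 negative (median -0.04). Those at an unadjusted p under 0.05 were 0, beside 2.83% of all genes. Without saline animal 5, 1 was positive and 7 negative (median -0.11), and without saline animal 4 the median was 0.03. HTR2A had 10.1 CPM at the lowest, 14.0 at the median and 23.6 at the highest after psilocybin, against 13.1, 15.2, 21.3, 22.97 and 15.4 CPM after saline. Its log2 fold change was -0.23 ± 0.21 (SE), with a 95% confidence interval from -0.66 to 0.20, and ran from -0.44 (without psilocybin animal 4) to -0.11 (without saline animal 4) when 1 animal was left out. HTR7, which couples to Gs, had 5.71 ± 0.751 CPM in psilocybin animals, against 6.35 ± 1.74 CPM in saline animals. HTR2C, a close relative of the 5-HT2A receptor, had 10.9 ± 0.988 CPM in psilocybin animals, against 11.8 ± 2.88 CPM in saline animals. SLC6A4, the serotonin transporter, was at 0.658 ± 0.380 CPM in psilocybin animals, against 0.803 ± 0.266 CPM in saline animals.

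Downstream of the receptor, Gq signalling genes were tightly measured. Of 23 tested members, 15 were positive and 8 negative (median 0.06), and 7 were positive and 16 negative without saline animal 5 (median -0.03). With all animals the log2 fold changes lay between -0.05 and 0.13, and 22 of 23 members had confidence intervals inside a 1.5-fold change. GNA11, a Gq-class alpha subunit, had 109 ± 11.5 CPM in psilocybin animals, against 103 ± 8.06 CPM in saline animals. Arrestins, receptor kinases and RGS genes, which end receptor signalling, had 20 of 20 intervals inside a 1.5-fold change (14 positive and 6 negative, median 0.07). Their score ranged from -0.05 to 0.06 after psilocybin and from -0.10 to 0.01 after saline.

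Immediate early transcription factors, the genes that neuronal activity switches on first, showed no common difference at 1 day. Of 20 tested, 13 were positive and 7 negative (median 0.06), and 0 had an unadjusted p under 0.05, beside 2.83% of all genes. Without saline animal 5, 9 were positive and 11 negative (median -0.01), and without psilocybin animal 1 the median was -0.09. FOS had 27.4 ± 11.4 CPM in psilocybin animals, against 26.2 ± 6.03 CPM in saline animals, and EGR1 had 158 ± 49.5 CPM in psilocybin animals, against 168 ± 22.2 CPM in saline animals. EGR3 had 16.4 CPM at the lowest, 25.8 at the median and 35.9 at the highest after psilocybin, against 12.1, 20.3, 36.2, 25.1 and 15.7 CPM after saline, with overlapping groups. By animal, the score was highest in psilocybin animals 4 (0.38) and 1 (0.27), while the other 4 psilocybin animals lay between -0.18 and -0.08, against -0.12, 0.17, 0.13, -0.07 and -0.23 in saline animals 1 to 5. Activity-induced effectors, the synaptic and trophic genes that follow, had 14 positive and 13 negative of 27 (median 0.01), and 6 and 21 without saline animal 5 (median -0.03).

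Glutamate receptor genes were mostly positive with all animals and evenly divided without saline animal 5. Of 24 tested, 21 were positive and 3 negative (median 0.08), and without saline animal 5 they were 12 and 12 (median -0.01). GRIN2C, an NMDA receptor subunit best known from the cerebellum and from astrocytes, shows how 1 animal can decide a value. Its level was 7.74 CPM in psilocybin animal 1 and 0.728 CPM at the median of the 6 psilocybin animals, against 0.258, 0.499, 0.661, 0.392 and 0.778 CPM after saline. The log2 fold change of 1.58 ± 0.67 (SE) was 0.31 without psilocybin animal 1. GRM4, a presynaptic metabotropic glutamate receptor, had 16.3 CPM at the lowest, 19.9 at the median and 34.5 at the highest after psilocybin, against 19.1, 17.1, 19.2, 15.3 and 14.8 CPM after saline (log2 fold change of GRM4 0.31, and 0.15 without psilocybin animal 1).

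Other lists of neuronal signalling had medians between 0.01 and 0.13, and several turned without saline animal 5. GABA receptor and synthesis genes had 12 positive and 9 negative of 21 (median 0.03), and 6 and 15 without that animal (median -0.03). Presynaptic release genes had 18 positive and 15 negative of 33 (median 0.01), and 7 and 26 without it (median -0.03). Among the release genes RIMS2, a scaffold of the release site, had 57.5 ± 5.74 CPM in psilocybin animals, against 65.3 ± 4.62 CPM in saline animals, and SLC17A6, a vesicular glutamate transporter, had 15.7 ± 0.663 CPM in psilocybin animals, against 18.4 ± 3.24 CPM in saline animals. Saline animal 4 alone had 23.9 CPM of SLC17A6, and the log2 fold change of -0.24 was -0.11 without it. Postsynaptic scaffold genes had 12 positive and 9 negative of 21 (median 0.05), and 9 and 12 without saline animal 5 (median -0.02). Guidance genes of the semaphorin, plexin, ephrin and slit families had 39 positive and 11 negative of 50 (median 0.08), which without saline animal 5 were 24 and 26 (median -0.01). Dopamine, adrenergic, muscarinic, opioid and cannabinoid receptors had 12 positive and 2 negative of 14 (median 0.13, and 0.06 without saline animal 5). DRD1, the D1 dopamine receptor, was one of the negative ones, with 10.8 CPM at the lowest, 14.1 at the median and 21.3 at the highest after psilocybin, against 17.4, 22.9, 28.4, 14.6 and 16.6 CPM after saline (log2 fold change of DRD1 -0.32, and -0.16 without saline animal 3).

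Among neuropeptides, NMB stood out from the others in size. Of 21 tested, 5 were positive and 16 negative (median -0.03). Apart from NMB only TAC1, the precursor of substance P, had an unadjusted p under 0.05 (together 9.52%, beside 2.83% of all genes). TAC1 had 3.97 CPM at the lowest, 5.32 at the median and 7.83 at the highest after psilocybin, against 9.28, 8.81, 6.28, 8.07 and 7.21 CPM after saline. The interneuron peptides SST (121 ± 26.6 CPM in psilocybin animals, 132 ± 16.4 CPM in saline animals), NPY (60.1 ± 14.8 CPM in psilocybin animals, 64.7 ± 15.8 CPM in saline animals) and VIP (24.9 ± 3.79 CPM in psilocybin animals, 25.5 ± 4.55 CPM in saline animals) differed by less than the spread between animals. CALB2, the calretinin of another class of interneurons, had 26.3 CPM at the lowest, 38.4 at the median and 45.2 at the highest after psilocybin, against 34.7, 23.4, 27.8, 28.2 and 24.7 CPM after saline (log2 fold change of CALB2 0.43 ± 0.17, SE). This was the highest log2 fold change of the inhibitory neuron identity list. Of 22 tested members of that list, 10 were positive and 12 negative (median -0.02, and -0.07 without saline animal 5). PVALB had the lowest log2 fold change of the list, at -0.38, and -0.09 without saline animal 5.

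Trophic and matrix genes had mostly positive values. Neurotrophin and growth factor genes had 22 positive and 7 negative of 29 (median 0.11, and 0.03 without saline animal 5). IGF1 was the only member at an unadjusted p under 0.05 (3.45%, beside 2.83% of all genes), on the negative side. Genes of perineuronal nets and the extracellular matrix had 19 positive and 7 negative of 26 (median 0.09, 0.10 in batch 1, 0.10 in batch 2, 0.08 without saline animal 5 and 0.06 without saline animal 1). BCAN, the brain proteoglycan brevican, had 256.4 CPM at the lowest, 328 at the median and 366 at the highest after psilocybin, against 237, 289, 292, 280 and 240 CPM after saline (log2 fold change of BCAN 0.25 ± 0.09, SE).

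Astrocyte genes were the cell type list with the most uniform sign. Of 26 tested, 24 were positive and 2 negative, with a median of 0.13, which was 0.17 in batch 1, 0.10 in batch 2 and 0.19 without saline animal 5. CBS, an enzyme of cysteine synthesis, was the only member at an unadjusted p under 0.05 (3.85%, beside 2.83% of all genes). CBS had 19.8 ± 3.78 CPM in psilocybin animals, against 15.9 ± 1.39 CPM in saline animals. SOX9, a glial transcription factor, had 65.5 CPM at the lowest, 70.3 at the median and 84.2 at the highest after psilocybin, against 64.5, 69.4, 62.2, 60.5 and 62.0 CPM after saline. VIM, the intermediate filament vimentin, had 203 CPM at the lowest, 231 at the median and 279 at the highest after psilocybin, against 208, 196, 201, 216 and 211 CPM after saline. The score of the list overlapped between groups, at -0.10, 0.15, -0.06, -0.07, 0.31 and 0.14 in psilocybin animals 1 to 6, against -0.40, 0.02, 0.02, -0.11 and 0.11 in saline animals 1 to 5. Saline animal 1 was the lowest, and without it the median was 0.07.

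Oligodendrocyte precursors and vessels also had positive medians. Precursor genes had 13 positive and 4 negative of 17 (median 0.13), and leaving out 1 animal gave medians from 0.07 (without psilocybin animal 6) to 0.22 (without saline animal 3). Endothelial and mural genes had 22 positive and 5 negative of 27 (median 0.07), but -0.02 in batch 1, 0.18 in batch 2 and -0.02 without saline animal 5. Blood genes differed between animals more than between groups: HBB, a globin, had from 196 to 5437 counts after psilocybin and from 372 to 1176 counts after saline.

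Lists of ribosomal and mitochondrial genes had one-sided counts that depended on saline animal 5. Cytosolic ribosomal protein genes had 1 positive and 44 negative of 45 (median -0.23), and 45 positive and 0 negative without that animal (median 0.09). Nuclear genes of the respiratory chain had 4 positive and 53 negative of 57 (median -0.20), and 26 and 31 without it (median -0.01). Mitochondrial ribosomal protein genes had 6 positive and 59 negative of 65 (median -0.10), and 39 and 26 without it (median 0.02). Mitochondrially encoded genes had 1 positive and 12 negative of 13 (median -0.06), and 13 and 0 without it (median 0.17). The medians also differed by batch: for the cytosolic ribosomal proteins 0.03 in batch 1 and -0.43 in batch 2, the batch of saline animal 5.

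RPL38, a protein of the large ribosomal subunit, shows the pattern in 1 gene. It had 56.3 CPM at the lowest, 93.4 at the median and 110 at the highest after psilocybin, against 117, 98.8, 62.5, 74.8 and 212 CPM after saline. Saline animals 3 and 4 lay in the lower part of the psilocybin range, and saline animal 5 far above every other animal. COX7B, a subunit of cytochrome c oxidase, followed it, with 80.2, 122 and 137 CPM as the lowest, median and highest after psilocybin, against 163, 129, 87.3, 100 and 285 CPM after saline.

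Saline animal 5 was also the highest for myelin. Its MBP level was 15980 CPM, against 3005 to 7807 CPM in the psilocybin animals and 1823 to 5792 CPM in the other 4 saline animals. Myelin and oligodendrocyte genes had 6 positive and 20 negative of 26 (median -0.07), and 22 and 4 without this animal (median 0.10). Mitochondrially encoded RNA took from 7.08% to 13.8% of counts after psilocybin and from 8.52% to 15.1% after saline. The part of myelin content in the ribosomal and respiratory chain values was not tested.

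Over all 42 lists, leaving out saline animal 5 turned the sign of the median in 19, and leaving out psilocybin animal 4 turned it in 11. Every other single animal turned it in 1 to 6 lists. Among the lists with a median over 0.1 in size, the interferon, astrocyte, precursor, antigen presentation, neurotrophin and the dopamine, adrenergic, muscarinic, opioid and cannabinoid receptor lists kept their sign without saline animal 5, as did the respiratory chain list at -0.01, while the cytosolic ribosomal list did not.

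**Figure D5:**
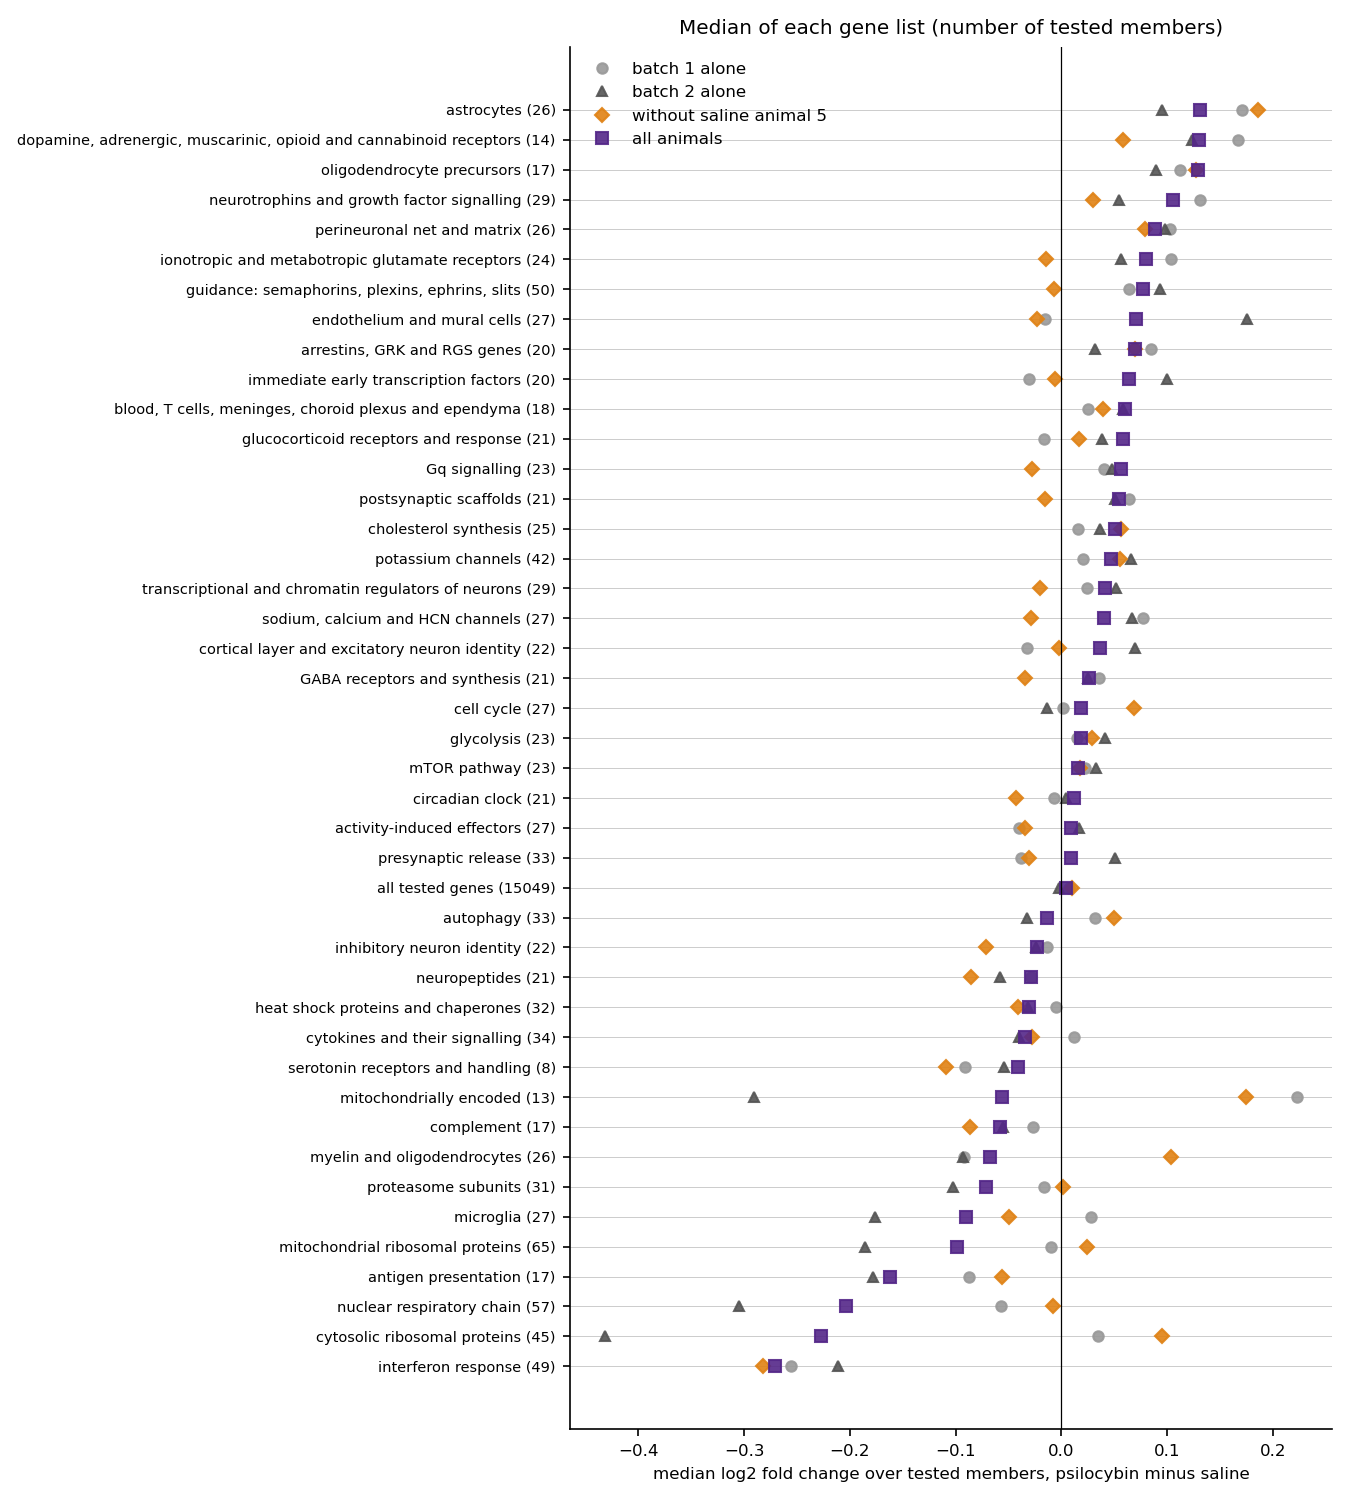
Median log2 fold change (psilocybin over saline) of the tested members of each list, with the number of members in brackets, for all animals (squares), without saline animal 5 (diamonds), batch 1 alone (circles) and batch 2 alone (triangles). The interferon list lies between -0.28 and -0.21 in these 4 fits (-0.17 without saline animal 3, which is not drawn), while the ribosomal list lies between -0.43 and 0.09.

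At 1 week, in animals of their own with their own saline group, the genes named for 1 day had other values. Of the 12 lower genes, 1 had a negative log2 fold change at 1 week, and of the 12 higher genes, 7 had a positive one. CXCL10 had 3.03 ± 1.21 CPM in psilocybin animals, against 2.84 ± 0.839 CPM in saline animals at 1 week, and NMB had 4.99 ± 1.21 CPM in psilocybin animals, against 4.79 ± 1.06 CPM in saline animals (SD, n = 6 each). IL18 had 5.80 ± 1.35 CPM in psilocybin animals, against 5.61 ± 1.88 CPM in saline animals. ASS1 was the clearest of those with the same sign, at 7.02 ± 0.532 CPM in psilocybin animals, against 5.51 ± 0.813 CPM in saline animals. The test of the difference between the 2 times gave an unadjusted p under 0.05 for 11 of the 12 lower and 6 of the 12 higher genes, and 0 passed adjustment with edgeR. The 1 day values that enter this difference are those by which the genes were chosen, so that the counts support nothing further.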

How the data were processed

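The authors deposited expected counts per Ensembl gene for 25880 genes. The tools named in the submitters' processing notes are fastp 0.20.0, STAR 2.6c and featureCounts 1.5.1, with the pig build susScr11. By the options in the header, per the file headers, primary alignments of pairs with both ends mapped were counted without strand, and a read over several genes was divided between them in fractions. Of all values 72.2% were whole, and values were rounded for the models. Symbols were matched for 14857 genes.

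A filter on low values (filterByExpr, minimum count 10 and minimum total 15) kept 15049 genes, 12495 with a symbol. Libraries were scaled by TMM. The model, edgeR 4.0.16 with its robust quasi-likelihood F test in R 4.3.3, held all 23 libraries, the 4 groups and batch (18 residual degrees of freedom). Tests were two-sided with Benjamini-Hochberg adjustment over all tested genes. CPM values carry the SD between animals and log2 fold changes their SE. The totals of 9975409 to 18654626 counts per library limit genes near 1 CPM to about 10 to 20 counts.

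The other settings were no filter, 1 CPM in 5 libraries as a stricter one, RLE scaling, DESeq2 1.42.0, limma-voom 3.58.1, the 11 libraries alone, no batch term, each batch alone and leaving out each animal. DESeq2 on the 11 libraries alone was added after the data were seen. Genes were named as the 12 with a symbol and the smallest p in each direction, the 3 smallest p of each of 42 lists, and defining cell markers. Further list members, such as FOS, HTR2C, RIGI and SST, were named outside this rule. So were genes without overlap between the groups and genes at a small p in both batches. Members and lists were chosen with earlier results of these data known. Of the 140 genes named by the smallest p, 40 overlap another gene (18 on the same and 29 on the opposite strand). Among them are CXCL10, LXN, TECPR1, HERC5 and EGR3. Sequences were not used here.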

Additional observations from a re-analysis of the deposited data

Results flagged for a closer look

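A sample far from the others of its group was found in 8 of 132 groups of values examined, and chance alone marks about 1 in 20 groups. ATG2A was lowest in saline animal 5 (45.12 CPM), as was TPP1 (59.62 CPM). PAX9, a developmental transcription factor, was highest of its group in psilocybin animal 3 (1.763 CPM) and lowest of its group in saline animal 4 (1.289 CPM). FAM111B, a protease, was highest in psilocybin animal 3 (2.381 CPM), and ARHGAP15 in psilocybin animal 5 (1.021 CPM). The score of the heat shock and chaperone list was highest in psilocybin animal 1 (0.082), and that of the autophagy list in psilocybin animal 2 (0.061). No gene's effect differed between 1 day and 1 week or between the batches after adjustment with edgeR (smallest adjusted p 0.9999 and 1.00).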

How the results depend on the processing

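No paired analysis was possible because the animal numbers in the labels are not shared between groups. The count of adjusted calls was 0 in the main analysis and in each setting fixed at the start, and 1 with DESeq2 on the 11 libraries alone, an alternative chosen after seeing the data, where 154 genes were lower at an unadjusted p under 0.05. At that threshold there were 152 lower genes without the batch term, in place of 236, then 78 higher and 78 lower in batch 1 alone and 92 higher and 113 lower in batch 2 alone, fits with fewer animals. Leaving out 1 animal at a time gave 142 (without psilocybin animal 2) to 282 (without saline animal 2) higher genes and 121 (without saline animal 5) to 446 (without saline animal 3) lower genes. Without saline animal 5, 37.6% of the genes at that threshold were still there. Of the named genes, in batch 1 alone the log2 fold change turned positive for RPL14 (0.0057), BCAS1 (0.031), ATP6 (0.208), COX1 (0.148) and COX3 (0.223) and negative for PDYN (-0.058). Over the fits without 1 animal, values ran from -0.4833 to 0.0034 for RPS3A, -0.4943 to 0.034 for RPL14, -0.5276 to 0.030 for RPL38, -0.6392 to 0.199 for BCAS1, -0.2396 to 0.158 for ATP6, -0.2288 to 0.146 for COX1 and -0.198 to 0.176 for COX3. The highest value came without saline animal 5 in each of these 7, and COX1 and COX3 also turned positive without psilocybin animal 4. The cause was not tested. The depth leaves genes under 1 CPM, IGF1 among them, with few counts, which limits the precision of their values.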
